A study of Mus musculus with 20 samples.

Results

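The genes described here take bile acids up from the gut lumen, carry them through the enterocyte and answer them through the nuclear receptor FXR: Slc10a2, Fabp6, Slc51a, Slc51b, Nr1h4, Fgf15 and Nr0b2. They were chosen by name, as every probe of the array whose gene name is one of these 7, out of 25034 gene symbols on the array. All 7 genes were found, with 10 probes, and all 10 passed the filter on dim probes in both comparisons.

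RNA from intestinal tissue of 20 C57BL6/j mice was hybridised to single-channel Agilent arrays, with 1 array for each mouse. The mice were 8 to 12 weeks old. The 6 Cre control mice carried VillinCreER/0 alone, and the 6 BRAFV600E mice carried VillinCreER/0 with BrafV600E-LSL/+. Both of these groups received 3 daily doses of 2 mg tamoxifen, with harvest 3 days after the last dose. The 4 MEKi mice received PD184352, an inhibitor of the kinase MEK, and the 4 Vehicle mice received its carrier. In both cases 3 injections followed 2 injections of 100 µl tamoxifen at 10 mg/ml. That MEKi and Vehicle mice carried the mutant allele comes from the study's text, since the labels do not give their genotype. The Villin promoter drives the recombinase in the gut epithelium, while each array reads a small piece of whole tissue. The place of the piece along the intestine is not given in the sources used here. In such bulk samples, fewer cells of a type and less RNA per cell cannot be told apart.

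Bile acids made in the liver are taken back up mainly in the ileum, the last stretch of the small intestine. Slc10a2 encodes the sodium-dependent transporter of the brush border, Fabp6 the binding protein of the cytosol, and Slc51a with Slc51b the subunits of the basolateral exporter. Inside the cell, bile acids activate FXR, encoded by Nr1h4, which pairs with a retinoid X receptor and binds inverted repeats of a short motif. FXR then drives Fgf15, a hormone that restrains bile acid synthesis in the liver, and Nr0b2, which encodes the repressor SHP. Fabp6, Slc51a and Slc51b are textbook FXR targets as well, whereas Slc10a2 is restrained by bile acids through SHP.

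Levels are log2 signal minus the 75th percentile of the same array, so 0 is the brightness of the spot at the 75th percentile, and a difference is a log2 difference between group means. Spots well above background made up 60.8% to 76.8% of an array. Of the genes that mark the ileum, the Slc10a2 probe lay above the 75th percentile on 1 of 20 arrays and the Fabp6 probe on 5 of 20. All 6 Cre control arrays were below it for both probes. Since probes differ in brightness, this does not rank the genes against others. All 10 enterocyte markers were well above background on all arrays of both comparisons. On slide 1, the software gave slopes for a spiked-in dilution series of 0.773, 0.843 and 0.759 on Cre control 2, 3 and 5 and marked them as out of range, against 1.05 to 1.07 on the other slide 1 arrays. It listed a slope of 0, also marked as out of range, for BRAFV600E 3 to 6, which lie on slide 2. BRAFV600E 1 and 2 shared slide 1 with the controls, and the MEKi and Vehicle arrays filled slide 3. There, MEKi arrays formed array row 1 and Vehicle arrays array row 2, and the effect of row and of group cannot be told apart.

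BRAFV600E 2 and Vehicle 2 lay at the ends of the marker means. The mean log2 level of 11 proximal small intestine markers was 5.23 on BRAFV600E 2 and 6.23 on Vehicle 2, against 4.08 to 5.16 on the other BRAFV600E and Cre control arrays and 3.61 to 4.29 on the other MEKi and Vehicle arrays. The mean of 10 distal markers that exclude the genes above was -1.13 on BRAFV600E 2 and -0.23 on Vehicle 2, the lowest of each experiment. Summed instead, the log2 level of the proximal markers on BRAFV600E 2 was 9.93, the lowest of its 12 arrays. The mean of 10 enterocyte markers was 5.20 on BRAFV600E 2 and 5.52 on Vehicle 2, against 5.71 to 6.25 and 5.79 to 6.31 on the other arrays of each experiment. Vehicle 2 also had a summed log2 level of 11.08 for 9 exocrine pancreas markers, against 2.05 to 2.73 on the other 7 arrays of that experiment. The differences of the 7 genes are therefore given with and without these arrays.

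**Figure D1:**
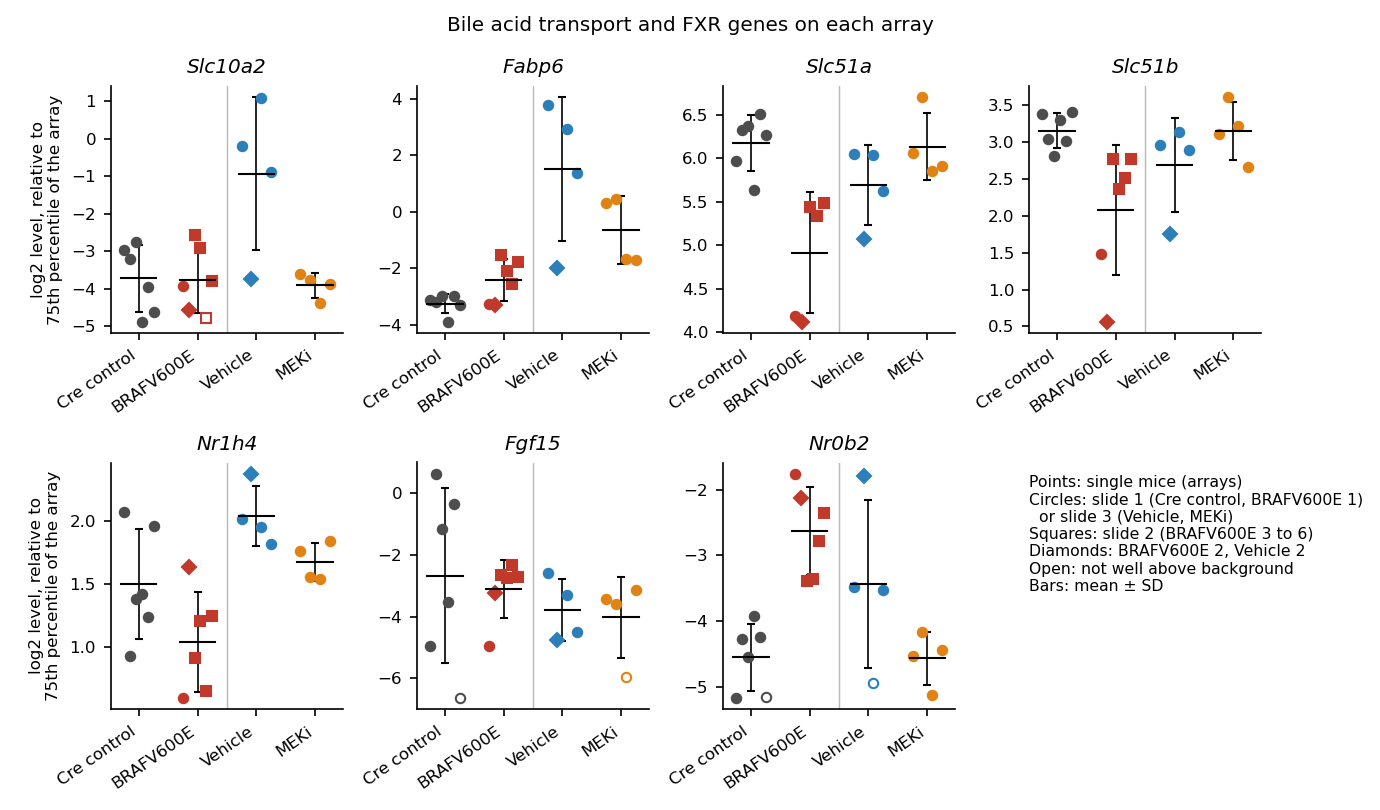
Log2 level of each gene (y axis, relative to the 75th percentile of the array) for every array, by group (x axis), with bars for the mean ± SD. BRAFV600E arrays lie wholly below Cre control arrays for Slc51a and Slc51b and wholly above them for Nr0b2, and Vehicle 2, at -3.73, lies among the MEKi arrays for Slc10a2. Diamonds mark BRAFV600E 2 and Vehicle 2, squares slide 2, and open points values not well above background.

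Between BRAFV600E and Cre control mice, the exporter subunit gene Slc51a fell and Nr0b2 rose, and the other 5 genes were not called. Calls rest on limma over all genes tested, with the Benjamini-Hochberg adjusted p below 0.05. Thus 1 of the 7 genes was called lower and 1 higher, where 6.27% and 6.19% of the 19041 genes tested were called lower and higher, 12.5% in all. Of their 10 probes, 2 were called, where 9.33% of all probes tested were. The median log2 difference was -0.43 over the 7 genes and -0.017 over all genes tested.

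Slc51a was measured by the probe at chr16:32475636-32475695 (mm9, minus strand). Its level ran from 5.63 to 6.51 in the 6 Cre control arrays, with a median of 6.30. In BRAFV600E mice it was 4.19, 4.12, 5.44, 5.33 and 5.48 on arrays 1 to 5. The spot on BRAFV600E 6 was marked as an outlier by the scanner software and left out, so the fit rests on 5 BRAFV600E arrays. All 5 lay below every control, and the 2 arrays of slide 1 were the lowest. Slc51a fell by 1.27 on the log2 scale (SE 0.29, adjusted p = 0.0189), a 2.40-fold difference. With the marked spot kept, at a level of 5.50, the difference was -1.17 (adjusted p = 0.0206). The second Slc51a probe, at chr16:32475871-32475930, gave -0.84 (SE 0.25, adjusted p over probes = 0.0571), with 6 of 6 BRAFV600E arrays below every control.

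Slc51b, whose protein must join that of Slc51a to form a working exporter, had the same arrangement and was not called over all arrays without a block. Its Cre control levels ran from 2.81 to 3.41 with a median of 3.17, and its BRAFV600E levels were 1.48, 0.57, 2.77, 2.36, 2.52 and 2.77. Again 6 of 6 BRAFV600E arrays were below all controls, and arrays 1 and 2 were the lowest. The difference was -1.08 (SE 0.34, adjusted p = 0.0562). With slide as a block it was called, at -2.14 (adjusted p = 0.000617), where 5.62% of all genes were called lower. That fit sets only BRAFV600E 1 and 2, the lowest arrays, against the controls, and BRAFV600E 2 stood apart in the marker means. Groups did not overlap with BRAFV600E lower for 2 of the 7 genes, Slc51a and Slc51b, and for 3.17% of all genes tested.

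The promoter windows of Slc51a and Slc51b are shown because both genes lay wholly below the controls. Each holds the 250 bases before the transcription start in RefSeq (GRCm38.p6), read along the gene's strand. Capitals mark a match to CAAGGNCA, the site of the nuclear receptor LRH-1, in Slc51a (chr16:32487880-32488129, minus strand) and to TGANTCA, the site of the MAPK-responsive factor AP-1, in Slc51b (chr9:65422774-65423023, minus strand).
Slc51a: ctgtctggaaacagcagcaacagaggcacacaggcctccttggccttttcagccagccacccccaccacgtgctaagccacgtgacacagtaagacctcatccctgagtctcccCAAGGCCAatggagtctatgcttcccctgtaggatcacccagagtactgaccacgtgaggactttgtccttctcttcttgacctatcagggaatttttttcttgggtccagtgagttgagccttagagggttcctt
Slc51b: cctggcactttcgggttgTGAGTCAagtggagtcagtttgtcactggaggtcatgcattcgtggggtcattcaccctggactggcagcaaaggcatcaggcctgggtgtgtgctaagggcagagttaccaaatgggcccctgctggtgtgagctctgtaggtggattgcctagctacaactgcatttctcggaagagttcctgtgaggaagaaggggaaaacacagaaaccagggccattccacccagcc
Both strands were searched. The AP-1 letters occurred in 6.75% and the LRH-1 letters in 5.53% of 32851 such windows. A match describes letters only and is not a site of binding.

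For each exporter gene a probe with a reading frame free of stop codons is given whole. The Slc51a probe is the second one above (chr16:32475871-32475930, mm9, minus strand) and the Slc51b probe lies at chr9:65260705-65260764 (mm9, minus strand).
Slc51a: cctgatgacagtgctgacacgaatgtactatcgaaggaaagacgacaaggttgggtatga
Slc51b: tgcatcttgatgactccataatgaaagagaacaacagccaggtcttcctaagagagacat

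Nr0b2 rose by 1.92 (SE 0.32, adjusted p = 0.00310), a 3.79-fold difference. Normexp is a background correction that models signal and noise together, and it was run with an offset of 50 added to the signal. With it the Nr0b2 difference was 0.72 (adjusted p = 0.0277). The part of the offset in that value was not tested. The control levels ran from -5.17 to -3.92 with a median of -4.41, near the dim end of the scale, and 5 of 6 control arrays were well above background. The BRAFV600E levels were -1.76, -2.13, -3.39, -3.36, -2.78 and -2.36, all above every control. Nr0b2 was the only one of the 7 genes whose groups did not overlap with BRAFV600E higher, as was so for 4.19% of all genes. Its probe lies at chr4:133109694-133109753 (mm9, plus strand), and its letters hold a reading frame free of stop codons.
Nr0b2 probe: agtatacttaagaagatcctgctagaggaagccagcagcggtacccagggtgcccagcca
Its promoter window is chr4:133553126-133553375 (GRCm38.p6, plus strand), with the LRH-1 letters in capitals. LRH-1 is known to drive Nr0b2, and SHP in turn restrains LRH-1.
Nr0b2 window: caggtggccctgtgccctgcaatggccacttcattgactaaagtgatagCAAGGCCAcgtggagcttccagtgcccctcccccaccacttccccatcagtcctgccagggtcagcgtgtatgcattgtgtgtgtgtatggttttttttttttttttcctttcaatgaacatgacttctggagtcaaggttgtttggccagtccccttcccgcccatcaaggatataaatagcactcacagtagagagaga

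Fabp6, the cytosolic carrier, was not called, and its BRAFV600E levels differed by slide. Its Cre control levels ran from -3.89 to -2.99 with a median of -3.18. On slide 1, BRAFV600E 1 and 2 gave -3.26 and -3.30, inside the control range. On slide 2, BRAFV600E 3 to 6 gave -1.55, -2.11, -2.57 and -1.77, all above it. The difference over all arrays was 0.83 (SE 0.31, 95% confidence interval 0.16 to 1.50, adjusted p = 0.0930), and on slide 1 alone it was -0.02 (SE 0.25, adjusted p = 0.971).

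Fabp6 was measured by 1 probe, at chr11:43410973-43411032 (mm9, minus strand), with a reading frame free of stop codons.
Fabp6 probe: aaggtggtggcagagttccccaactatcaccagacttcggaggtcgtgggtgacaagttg
Its window (chr11:43601563-43601812, GRCm38.p6, minus strand) is shown because it alone of the 6 windows found held the FXR repeat. The repeat is AGGTCA, any 1 base and TGACCT. Capitals mark matches with at most 2 mismatches in its 12 fixed letters, at -222 to -210 and -142 to -130 from the start, and the LRH-1 letters between them. The repeat was found at this tolerance in 0.959% of all windows. The Nr1h4 window held none of the 3 motifs.
Fabp6 window: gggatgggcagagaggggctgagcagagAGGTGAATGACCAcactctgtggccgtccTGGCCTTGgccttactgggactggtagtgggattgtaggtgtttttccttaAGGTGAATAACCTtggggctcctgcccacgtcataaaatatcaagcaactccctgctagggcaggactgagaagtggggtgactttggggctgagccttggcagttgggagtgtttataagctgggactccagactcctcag

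Slc10a2, the gene of apical uptake, spread over the same range in both groups. The Cre control levels ran from -4.87 to -2.75 with a median of -3.57, and the BRAFV600E levels from -4.77 to -2.58 with a median of -3.86. The difference was -0.03 (95% confidence interval -1.03 to 0.96, adjusted p = 0.973), so these arrays leave room for a change of either sign within that interval. Without BRAFV600E 2 it was 0.13 (95% confidence interval -0.92 to 1.17). The second probe gave 0.07 (SE 0.44).

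Nr1h4, the gene of FXR itself, ran from 0.93 to 2.08 in Cre control mice, with a median of 1.40, and from 0.59 to 1.64 in BRAFV600E mice, with a median of 1.06. The groups overlapped, and the difference was -0.46 (95% confidence interval -0.97 to 0.04, adjusted p = 0.204). Without BRAFV600E 2 it was -0.58, with an interval of -1.07 to -0.09 that leaves out 0, and was not called (adjusted p = 0.125). The second probe gave -0.56 (SE 0.19, adjusted p over probes = 0.0839), with 5 of 6 BRAFV600E arrays below every control. The probe that stands for the gene lies at chr10:88917222-88917281 (mm9) and the other at chr10:88960160-88960219.

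Fgf15, the hormone gene, had the widest spread of the 7 genes among control mice, with an SD of 2.83. The 6 Cre control arrays gave -4.96, 0.62, -1.18, -3.54, -0.36 and -6.64, and the last was not well above background. The 3 high values were those of arrays 2, 3 and 5, the same 3 arrays whose spike-in slope was out of range. The BRAFV600E levels ran from -4.96 to -2.33 with a median of -2.73. The difference was -0.43 (95% confidence interval -2.79 to 1.93, adjusted p = 0.831), the widest interval of the 7 genes, and -0.40 without BRAFV600E 2. Against the 3 controls with a slope in range, with all BRAFV600E arrays kept, it was 1.94 (adjusted p = 0.176). The part of array quality in the high values was not tested.

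**Figure D2:**
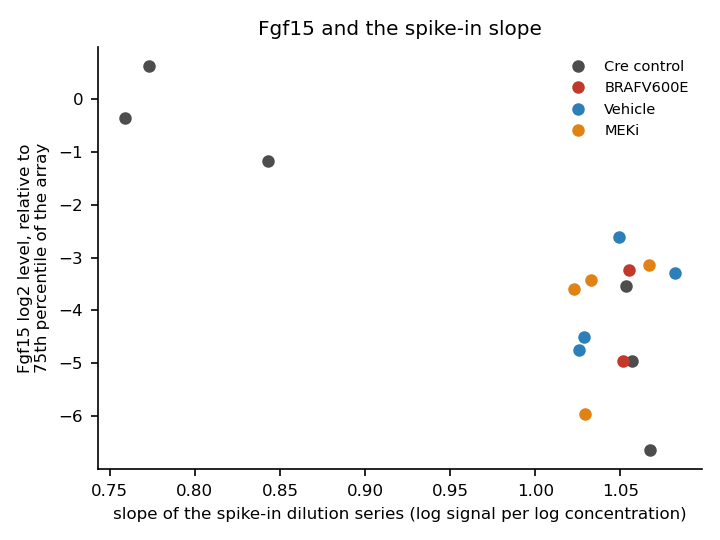
Fgf15 log2 level (y axis, relative to the 75th percentile of the array) against the slope of the spike-in dilution series that the software wrote (x axis, log signal per log concentration), for the 16 arrays with a slope above 0. The 3 Cre control arrays with slopes of 0.759 to 0.843 have Fgf15 levels of -1.18 to 0.62, above the other 3 at -6.64 to -3.54.

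Leaving out BRAFV600E 2 kept the calls of Slc51a and Nr0b2, while 4.14% and 4.53% of all genes were then called lower and higher. Slc51a then differed by -1.07 (adjusted p = 0.0392), Slc51b by -0.78 (adjusted p = 0.0592), Nr0b2 by 1.82 (adjusted p = 0.00782) and Fabp6 by 1.00 (adjusted p = 0.0542). With slide as a block, which compares groups within slide 1, both exporter genes were called lower, Slc51a at -2.02 (adjusted p = 0.000639) and Slc51b at the value above. Nr0b2 was then 2.61 higher (adjusted p = 0.00198), where 2.43% were called higher. That comparison has 2 BRAFV600E arrays, BRAFV600E 1 and BRAFV600E 2, and the latter stood apart in the marker means. Without both of them, BRAFV600E 3 to 6 lie on slide 2 and all controls on slide 1, so slide and group cannot be told apart. The Slc51a difference was then -0.76 (adjusted p = 0.0529) and no longer called, and Fabp6 was called at 1.26 (adjusted p = 0.0121), where 4.31% of all genes were called higher. With the 3 in-range controls alone, 1 of the 7 genes was called, where 2.24% of all genes were. This setting kept all BRAFV600E arrays, though the slopes of BRAFV600E 3 to 6 were out of range too. Slc51a gave -1.04 (adjusted p = 0.188) and Nr0b2 gave 2.12 (adjusted p = 0.0386).

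**Figure D3:**
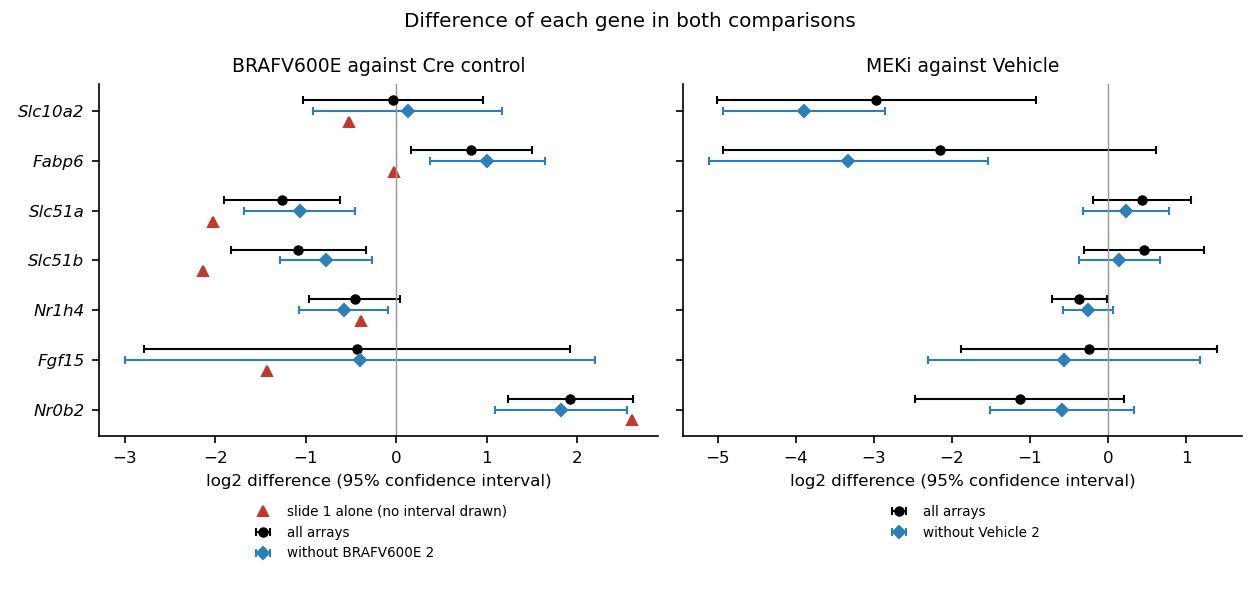
Log2 difference (x axis, with 95% confidence intervals) of each gene for BRAFV600E against Cre control (left) and MEKi against Vehicle (right), over all arrays (circles), without the array that stood apart (diamonds) and, on the left, on slide 1 alone (triangles, no interval). Slc51a and Slc51b lie further below 0 on slide 1, at -2.02 and -2.14, where the BRAFV600E arrays are 1 and 2. Slc10a2 under MEKi moves from -2.97 to -3.90 without Vehicle 2.

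Between MEKi and Vehicle mice none of the 7 genes was called by limma, where 1.98% of 19231 genes tested were called. None of their 10 probes was called, where 0.927% of all probes tested were. For none of the 7 did the groups separate without overlap, which 12.2% of all genes tested did. Unadjusted p-values were under 0.05 for 2 of them, Slc10a2 and Nr1h4, and for 16.4% of all genes tested. The median log2 difference was -0.37 over the 7 genes and 0.037 over all genes tested. The median of the 7 is the value of Nr1h4, and the genes went both ways.

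Slc10a2 had the largest difference of the 7. Its levels were -3.60, -3.77, -4.37 and -3.87 in the 4 MEKi mice and -0.21, -3.73, 1.10 and -0.90 in the 4 Vehicle mice. The MEKi arrays were tightly grouped, 3 Vehicle arrays were far above them, and Vehicle 2 fell inside their range. The difference was -2.97 (SE 0.89, 95% confidence interval -5.01 to -0.92, adjusted p = 0.151). The second probe, at chr8:5086145-5086204 (mm9), gave -3.31 (SE 0.93, adjusted p over probes = 0.176). Without Vehicle 2, Slc10a2 was called lower at -3.90 (SE 0.44, adjusted p = 0.0159). It was then 1 of the 7 genes called, where 0.832% of all genes were called lower. Limma's array weights, which give less weight to arrays that fit poorly, called it too, at -3.56 (adjusted p = 0.0204), where 2.79% of all genes were called lower. Slc10a2 stayed lower in all 19 alternatives (-4.33 to -2.29) and was called in only these 2. The weight given to Vehicle 2 was not looked at, so the 2 calls are not taken as separate. The window of Slc10a2 is shown because of these calls (chr8:5105288-5105537, GRCm38.p6, minus strand). Capitals mark a match to the AP-1 letters TGANTCA, where N is any base, and AP-1 is a known regulator of this gene. These letters occurred in 6.75% of 32851 windows, and a match is not a site of binding. A part of AP-1 in the Slc10a2 difference was not tested.
Slc10a2 window: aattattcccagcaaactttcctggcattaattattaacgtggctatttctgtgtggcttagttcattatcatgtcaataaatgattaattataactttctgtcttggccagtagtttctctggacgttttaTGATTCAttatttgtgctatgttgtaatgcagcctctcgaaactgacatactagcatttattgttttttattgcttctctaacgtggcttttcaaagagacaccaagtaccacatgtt

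Fabp6 had a similar arrangement with more spread. The MEKi levels were 0.32, 0.45, -1.67 and -1.72, and the Vehicle levels 3.76, -2.01, 2.91 and 1.35. All 4 MEKi arrays lay below Vehicle 1, 3 and 4 and above Vehicle 2. The difference was -2.16 (SE 1.21, adjusted p = 0.441), and without Vehicle 2 it was -3.33 (SE 0.77, adjusted p = 0.0847).

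The exporter genes were not called. Slc51a gave 6.06, 6.70, 5.86 and 5.91 in MEKi mice against 6.05, 5.07, 6.03 and 5.62 in Vehicle mice, a difference of 0.44 (95% confidence interval -0.19 to 1.07). Slc51b gave 3.12, 3.61, 3.21 and 2.66 against 2.97, 1.75, 3.14 and 2.90, a difference of 0.46 (95% confidence interval -0.30 to 1.23). Vehicle 2 was the lowest array of the experiment for both subunits, and without it the differences were 0.23 and 0.15.

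Nr1h4 gave 1.76, 1.56, 1.54 and 1.84 in MEKi mice and 2.02, 2.38, 1.96 and 1.82 in Vehicle mice. The highest MEKi array lay just above the lowest Vehicle array. The difference was -0.37 (95% confidence interval -0.72 to -0.01, adjusted p = 0.287). Without Vehicle 2 it was -0.25, with an interval of -0.58 to 0.07 that includes 0. The second probe gave -0.34 (SE 0.16).

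Of the FXR targets, Fgf15 gave -3.43, -3.59, -5.96 and -3.13 in MEKi mice and -2.61, -4.75, -3.29 and -4.50 in Vehicle mice, so the groups overlapped. The difference was -0.24 (95% confidence interval -1.88 to 1.39), and -0.57 without Vehicle 2. Nr0b2 gave -4.53, -4.17, -5.13 and -4.45 in MEKi mice against -3.48, -1.80, -4.93 and -3.53 in Vehicle mice. Vehicle 2 was the highest array for Nr0b2, in contrast to its low levels of the transporter genes. The Nr0b2 difference was -1.13 (SE 0.58, adjusted p = 0.393) with Vehicle 2 and -0.59 (adjusted p = 0.533) without it.

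Over the 4 groups the mean levels (± SD) took the following order. The experiments lay on different slides, so neighbours from different experiments were not tested, and between neighbours of 1 experiment only the calls above apply. Slc10a2 was highest in Vehicle mice (-0.93 ± 2.04, n = 4), followed by Cre control (-3.72 ± 0.89, n = 6), BRAFV600E (-3.76 ± 0.87, n = 6) and MEKi mice (-3.90 ± 0.33, n = 4), and the last 3 differed by less than their spread. Fabp6 went from Vehicle (1.50 ± 2.55) through MEKi (-0.65 ± 1.20) and BRAFV600E (-2.43 ± 0.74) to Cre control (-3.26 ± 0.33). Both ileal genes were thus highest, and most variable, in the Vehicle group. That spread includes Vehicle 2, at -3.73 for Slc10a2 and -2.01 for Fabp6. Vehicle 1, 3 and 4 ran from -0.90 to 1.10 for Slc10a2 and from 1.35 to 3.76 for Fabp6. Slc51a went from Cre control (6.18 ± 0.32) through MEKi (6.13 ± 0.39) and Vehicle (5.69 ± 0.46) to BRAFV600E (4.91 ± 0.69, n = 5). Slc51b kept that order, from Cre control (3.16 ± 0.24) through MEKi (3.15 ± 0.39) and Vehicle (2.69 ± 0.64) to BRAFV600E (2.08 ± 0.88). For both subunits Cre control and MEKi mice differed by less than their spread. Nr1h4 went from Vehicle (2.04 ± 0.24) through MEKi (1.67 ± 0.15) and Cre control (1.50 ± 0.44) to BRAFV600E (1.04 ± 0.40). Fgf15 went from Cre control (-2.68 ± 2.83) through BRAFV600E (-3.11 ± 0.95) and Vehicle (-3.79 ± 1.01) to MEKi (-4.03 ± 1.30), with every neighbour inside the spread. Nr0b2 went from BRAFV600E (-2.63 ± 0.67) through Vehicle (-3.44 ± 1.28) and Cre control (-4.55 ± 0.51) to MEKi (-4.57 ± 0.40).

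Markers of the distal small intestine also separated BRAFV600E from Cre control arrays by their mean level. The mean log2 level of the 10 distal markers was -1.13 to 1.10 in BRAFV600E mice and 1.43 to 2.65 in Cre control mice, which do not overlap. Differences of the single markers ran from -5.31 (Cubn) to 1.99 (Pyy), with a median of -1.64. Whether the means stay apart without Cubn was not tested. The mean level was 1.70 to 3.54 in MEKi mice and 2.05 to 2.53 in Vehicle 1, 3 and 4, with -0.23 in Vehicle 2. Summed, the 10 markers had a log2 level of 6.37 to 7.70 in BRAFV600E and 7.20 to 7.66 in Cre control mice, and of 7.39 to 8.26 in MEKi and 6.63 to 8.08 in Vehicle mice. On Cre control and MEKi arrays all 10 were well above background, and on BRAFV600E and Vehicle arrays at least 8 of 10. Their part in the results was not tested. Of the 10, Cubn and Mep1a were called lower in BRAFV600E mice and Pyy higher, where 6.27% and 6.19% of all genes were. Cubn, which encodes the ileal vitamin B12 receptor, fell by 5.31 (SE 0.75, adjusted p = 0.00119), Mep1a, a brush border metalloprotease gene, fell by 3.00 (SE 0.29, adjusted p = 6.79e-05), and Pyy, a hormone gene of distal endocrine cells, rose by 1.99 (SE 0.46, adjusted p = 0.0164). None of the 10 was called between MEKi and Vehicle mice, where 1.98% of all genes were. On MEKi 1 to 4 the distal marker means were 3.06, 3.54, 1.70 and 2.06, with Slc10a2 at -3.60, -3.77, -4.37 and -3.87. On Vehicle 1, 3 and 4 the means were 2.53, 2.42 and 2.05, with Slc10a2 at -0.21, 1.10 and -0.90. The part of position along the intestine in these levels was not tested.

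Of 11 proximal markers measured, Ada, Rbp2 and Gata4 were called higher in BRAFV600E mice and none lower, where 6.19% and 6.27% of all genes were. Ada, of purine breakdown, rose by 1.44 (SE 0.30, adjusted p = 0.0107), Rbp2, of retinol transport, rose by 0.97 (SE 0.23, adjusted p = 0.0178), and Gata4, a factor that marks the jejunum and duodenum, rose by 0.49 (SE 0.13, adjusted p = 0.0334). A second, dimmer Gata4 probe gave 0.09 (adjusted p over probes = 0.890). Without BRAFV600E 2, Gata4 was not called (adjusted p = 0.0685), and Lct, the lactase gene, was called lower at -1.45 (adjusted p = 0.0114). Colon markers and B lymphoid markers had no member called in either comparison over all arrays, where 12.5% and 1.98% of all genes were. The colon marker Mettl7b was called lower without BRAFV600E 2, at -1.42 (adjusted p = 0.00237), and higher without Vehicle 2, at 1.28 (adjusted p = 0.0270).

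**Figure D4:**
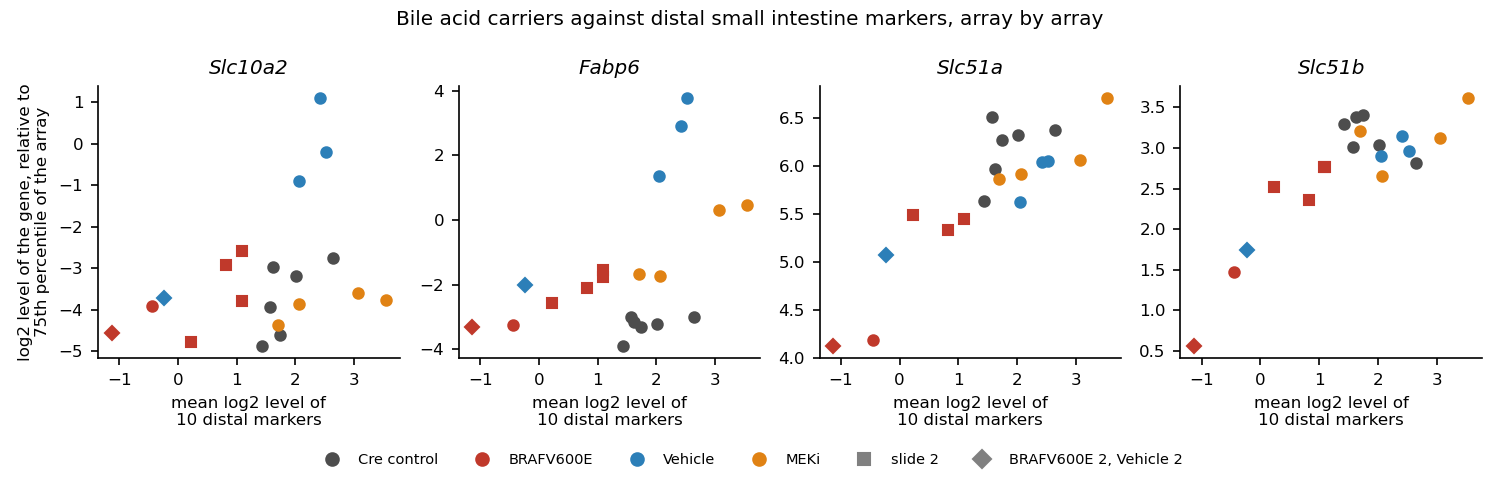
Log2 level of 4 transport genes (y axes, relative to the 75th percentile of the array) against the mean log2 level of 10 distal small intestine markers (x axis), 1 point per array. BRAFV600E arrays (-1.13 to 1.10) and Vehicle 2 (-0.23) have the lowest distal markers and the lowest Slc51a levels (4.12 to 5.48). The 4 MEKi arrays have distal markers of 1.70 to 3.54 and Slc10a2 levels of -4.37 to -3.60. The part of position along the intestine was not tested. BRAFV600E 6 has no point for Slc51a, where its spot was left out.

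Among 37 other genes of bile acid handling and FXR action, 36 were on the array. Between BRAFV600E and Cre control mice, 33 were tested, 2 were called higher and 5 lower, with a median difference of -0.16. Of all genes tested, 6.19% were called higher, near the share in this list, and 6.27% lower. Hnf4a, a factor of enterocyte identity, rose by 0.60 (SE 0.18, adjusted p = 0.0485), and Gata4, which is known to repress Slc10a2 and Fabp6 in the proximal intestine, was the other. Without BRAFV600E 2, Hnf4a was not called (adjusted p = 0.0756). Over probes it missed the threshold as well (adjusted p = 0.0610), and a second Hnf4a probe gave 0.24 (adjusted p over probes = 0.567). Of those called lower, Cyp3a11, a detoxifying cytochrome, fell by 1.65 (SE 0.42, adjusted p = 0.0256), Rxrg, a possible partner of FXR, fell by 1.46 (SE 0.45, adjusted p = 0.0496), and Slc27a5, a gene of bile acid conjugation, fell by 0.90 (SE 0.24, adjusted p = 0.0279). Without BRAFV600E 2, Slc27a5 was not called (adjusted p = 0.0592). Rxrg was dim, with 3 of 6 BRAFV600E arrays well above background, and its adjusted p over probes was 0.0576. Between MEKi and Vehicle mice, 34 were tested and none was called over all arrays, where 1.98% of all genes were. The median difference was -0.06. Without Vehicle 2, Baat, a gene of bile acid conjugation, was called higher at 0.89 (adjusted p = 0.0370), where 0.962% of all genes were called higher.

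Transport genes varied together from mouse to mouse within groups, and fewer pairs passed without BRAFV600E 2 and Vehicle 2. Over the 20 arrays, after removing each group's mean, 21 pairs of genes were compared by a permutation test within groups (two-sided, 100000 resamples, Benjamini-Hochberg adjustment over the pairs), and 4 pairs passed, all positive. Fabp6 and Slc51a had a Pearson r of 0.70 (permutation p = 6.0e-05, adjusted p = 0.00126) and a Spearman rho of 0.77 (p = 0.00016), and r was 0.73 without the 2 arrays farthest out. Slc10a2 and Fabp6 had r of 0.79 (permutation p = 0.00186, adjusted p = 0.0163) and rho of 0.69 (p = 0.00025). Without the 2 farthest arrays, Vehicle 2 and 3, that r was 0.56. Fabp6 and Slc51b had r of 0.65 (permutation p = 0.00233, adjusted p = 0.0163) and rho of 0.68 (p = 0.00196), and 0.61 without the 2 farthest arrays. Slc51a and Slc51b had r of 0.77 (permutation p = 0.00672, adjusted p = 0.0353) and rho of 0.80 (p = 0.00471), and 0.67 without BRAFV600E 1 and 2. Pairs with Slc51a have 19 arrays.

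Within the BRAFV600E and Cre control arrays alone, r was 0.86 for Fabp6 with Slc51a, 0.66 for Slc10a2 with Fabp6, 0.72 for Fabp6 with Slc51b and 0.72 for the exporter subunits. Without BRAFV600E 1 and 2, the arrays farthest from the median of the first gene of either pair, r was 0.38 for the exporter subunits and 0.39 for Fabp6 with Slc51b. For the 4 pairs in the order first given, r was 0.89, 0.87, 0.87 and 0.87 within the MEKi and Vehicle arrays alone. All were positive, and none passed the adjusted test there. With BRAFV600E centred within each slide, the first pair and the second passed, at r of 0.79 and 0.78, and without BRAFV600E 2 and Vehicle 2 only Fabp6 with Slc51a did, at r of 0.69 (permutation adjusted p = 0.00693). Nr0b2 ran the other way, with r of -0.72 against Slc10a2, -0.60 against Slc51b and -0.56 against Slc51a, each missing the threshold after adjustment (permutation adjusted p = 0.0516, 0.0516 and 0.0716). Without the 2 farthest arrays these were -0.37, -0.48 and -0.46. Within the MEKi and Vehicle arrays, r of Nr0b2 with Slc10a2 was -0.88, and 0.50 without Vehicle 2 and 3. Without BRAFV600E 2 and Vehicle 2, Nr0b2 with Fabp6 went from -0.59 to -0.15, Slc10a2 with Slc51b from 0.46 to 0.02 and Slc10a2 with Slc51a from 0.54 to 0.32. Over the 20 arrays, the receptor gene Nr1h4 had no pair with an unadjusted p under 0.05.

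**Figure D5:**
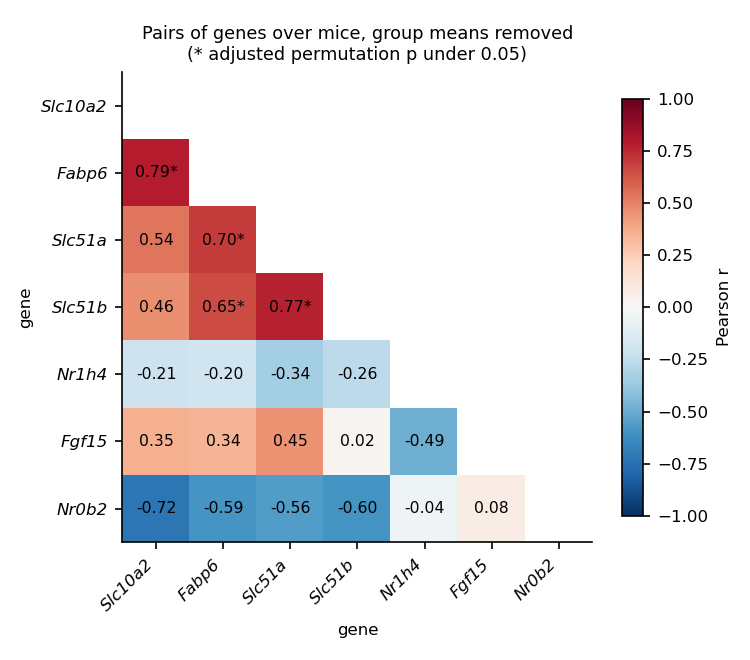
Pearson r between genes over mice after removing group means (20 arrays, 19 for Slc51a), with colour from -1 to 1 and a star where the adjusted permutation p was under 0.05. The transport genes form a positive block, from 0.46 to 0.79, and Nr0b2 is negative against all 4 of them, from -0.72 to -0.56. Without BRAFV600E 2 and Vehicle 2, not drawn, these ranges are 0.02 to 0.69 and -0.47 to -0.15.

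As a description, the genes whose deviations from the group means were most like each of the 7 were sought among 17510 genes well above background on at least 15 arrays. Points share slides and array quality. Fabp6 was most like Mep1a (r = 0.93), followed by 1700056E22Rik, Slc41a3, Gm7694 and Gsdme. Among the genes most like Slc10a2 were Slc34a3 (r = 0.90), Zbtb18, Vopp1 and Gdpd1. Slc51a was most like H2-Q8 (r = 0.94, 19 arrays), then H2-K1, Gm11127, Gm8909 and Slc31a1. H2-Q8 and H2-K1 are class I histocompatibility genes, whose near-identical copies a probe can read together. Slc51b was most like Adora2b (r = 0.94), then Ankrd46, Fahd1, Pde6d and the brush border peptidase gene Dpp4. Fgf15 was most like Gm4876 (r = 0.95), then Gm32296, Gm5751, Pate12 and Il12rb2. Nr1h4 was most like Myo1e (r = 0.81), then Tmc5, Aplp2, Ern1 and Sidt1. Nr0b2 was most like Akr1c14 (r = 0.82), then Tmie, Krtap16-1, Dclk3 and Igf2bp3.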

How the data were processed

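Per the file headers, the authors' arrays were read with Agilent Feature Extraction 10.5.1.1. The deposited intensity is background-subtracted, spatially detrended, linear and not normalized between arrays, and marks of 0 or 1 say whether a spot is outlying, saturated or well above background. The authors' series matrix held the same intensity (100% of spots within 0.5% on every array) and served as the setting without scaling.

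Control and outlier spots were left out, each array's 75th percentile was subtracted from log2 intensity, and copies of a probe were averaged. Of 56605 probes, 12271 could not be named through RefSeq (GRCm38.p6, names only). The probe with the highest mean stood for a gene. No spot was saturated. Probe coordinates are those of the files (mm9), and their place within transcripts was not analysed. Promoter windows from RefSeq matched 6 of the 7 genes, all but Fgf15.

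Genes well above background on at least 6 of 12 or 4 of 8 arrays were tested with limma 3.58.1 (R 4.3.3, two-sided, no covariates), each experiment on its own arrays. The number of arrays limits the precision. Groups came from the labels, whose treatment text describes a statin for all arrays alike and was not used. Simulated data had independent normal noise, no slide effect and 100 genes changed at each size. Changes of 1 and 2 on the log2 scale were recovered in 53% and 87% of cases for BRAFV600E against Cre control (18869 genes). For MEKi against Vehicle (19177 genes) the shares were 38% and 80%. These rates check the fit and do not give the power of the designs here.

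The 7 genes, the other lists and the naming rules were chosen with earlier results of these data known. Named were all 7, the list genes called (the 3 largest each way where more than 6 were) and the 5 genes most like each of the 7, of which 1 is not reported here. Lists were bile acid pathway genes and distal, proximal, enterocyte, colon, exocrine pancreas, B lymphoid, smooth muscle and liver markers. Alternatives were normexp, scaling, filter, probe choice, names, array weights, Y-linked signal, slide, array column and leaving out each array. BRAFV600E 3 to 6 alone, marked spots kept, in-range controls and pairs centred within slide were added after seeing the data.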

Additional observations from a re-analysis of the deposited data

Results flagged for a closer look

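Of 28 sets of values (7 genes in 4 groups), 3 held an array far from the rest of its group, where chance gives about 1 in 20. Fgf15 on MEKi 3 was -5.96, not well above background, with the next MEKi array at -3.59. Fgf15 on BRAFV600E 1 was -4.96, with the next at -3.24. Fabp6 on Cre control 4 was -3.89, with the next at -3.32.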

How the results depend on the processing

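Nr0b2 stayed called higher in BRAFV600E mice under all 26 alternatives (0.72 to 2.73). Slc51a stayed lower in all 26 (-2.02 to -0.50) and was called in 23, the exceptions being no scaling between arrays (-0.50), BRAFV600E 3 to 6 alone (-0.76) and in-range controls (-1.04). Slc51b stayed lower in all 26 (-2.14 to -0.27) and was called in 6. Fabp6 was called in 2, without scaling and with BRAFV600E 3 to 6. In the latter setting 4.31% of all genes were called higher. Without scaling the median of all genes was 0.79, and nearly all genes called were higher, as counted below. Calls higher in that setting therefore single out neither Fabp6 nor Nr0b2.

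Signs turned for values that were not called. For BRAFV600E against Cre control, Slc10a2 became 0.12 with quantile normalization, 0.77 without scaling, 0.016 with the median of its probes, 0.21 with BRAFV600E 3 to 6 and 0.40 with in-range controls, and ran from -0.27 to 0.17 with 1 array left out. Fgf15 became 0.38 without scaling, 0.065 with BRAFV600E 3 to 6 and 1.94 with in-range controls, and ran from -1.22 to 0.23 with 1 array left out. Nr1h4 became 0.35 without scaling, and Fabp6 -0.020 both with slide as block and on slide 1. For MEKi against Vehicle, Fgf15 ran from -0.57 to 0.40 with 1 array left out. The cause was not tested. The median of all genes was 0.79 without scaling and -0.13 with normexp, and differences there are relative to it.

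Genes called between BRAFV600E and Cre control mice numbered 2372 (49.7% higher), 4648 (34.3%) with normexp, 9337 (98.1%) without scaling, 1533 (30.2%) with slide as block, 734 (26.3%) on slide 1, 1468 with BRAFV600E 3 to 6, 426 with in-range controls and 1441 to 2863 with 1 array left out, being 1525 without Cre control 2 and 1441 without Cre control 3. Of the 7 genes 2 were called, 1 with in-range controls and 2 to 3 with 1 array left out, the third being Slc51b without BRAFV600E 3 (adjusted p = 0.0498). Of the 10 probes 2 were called, 5 with normexp, 4 with quantile normalization, slide as block or slide 1, 1 with in-range controls and 1 to 2 with 1 array left out (1 without Cre control 3 or 5). Of all probes tested, 9.33% were called in the main fit. No such share was taken under the alternatives, so the probe counts there are not a result about these genes. Between MEKi and Vehicle mice 380 genes were called (55.3% higher), 72 without scaling, 234 without a filter, 217 with the median of probes, 1135 with array weights, 53 (43.4%) with the Y-linked signal, 16 (18.8%) with array column as block and 76 to 376 with 1 array left out. The lower counts were without MEKi 1 (76), 3 (89) and 4 (147) and Vehicle 1 (191), 3 (117) and 4 (98). Of the 7 genes 0 were called by limma (unadjusted p under 0.05 for 2), 1 with array weights and 0 to 1 with 1 array left out. Of the 10 probes 0 were called, 2 with array weights and 0 to 2 with 1 array left out, the calls being those without Vehicle 2. Here 0.927% of all probes tested were called in the main fit, again with no share taken under the alternatives. Of the 21 pairs 4 passed, 0 within either experiment, 1 without BRAFV600E 2 and Vehicle 2, and 2 centred within slides. No paired analysis was possible because replicate numbers only name arrays and the labels pair none of the mice. Signal over background limits Nr0b2, Slc10a2 and Fgf15, which reach the dimmest levels well above background (-5.88 to -4.43 by array).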

Other observations

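Of 10 enterocyte markers, Alpi, of brush border phosphatase, rose by 1.84 (limma adjusted p = 0.00225) and Mgam, a maltase gene, fell by 1.14 (adjusted p = 0.0192) in BRAFV600E mice. Of 6 smooth muscle markers, Des rose by 0.94 and Actg2 by 0.71. Without BRAFV600E 2, Actg2 was not called (adjusted p = 0.0663) and Cnn1 was, at 0.93 (adjusted p = 0.0217). Of 6 pancreas markers tested, Cela1 rose by 0.72. Of 4 liver markers tested, Ttr rose by 1.93 while Alb fell by 1.16 and Serpina1a fell by 1.33. Over all genes tested in BRAFV600E against Cre control mice, 6.19% were called higher and 6.27% lower. No colon or B lymphoid marker was called there over all arrays, nor any marker of these lists between MEKi and Vehicle mice. In the latter comparison 1.98% of all genes tested were called. Without Vehicle 2, the pancreas marker Pnlip, well above background on 3 of 4 MEKi arrays and 1 of 4 Vehicle arrays, was called higher at 1.56 (adjusted p = 0.0295), and Mettl7b was called as given above.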
